A study of Mus musculus with 6 samples.

Results

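The insulin-like growth factor (IGF) genes described here are Igfbp2, Igfbp5 and Irs1, which encode 2 IGF binding proteins and an adaptor of the insulin and IGF receptors. They were found by their symbols in the gene comparison of E15.5 mouse retina. Each of the 3 genes had 1 row among the 1140 complete rows available here, all on chromosome 1. Each was among the 646 of these rows that the authors had tested. The authors' comparison appears to have held more rows, and these may not cover all of chromosome 1. Ranks and shares below are therefore over the available rows only. Control retinas carried the T2fx/+ genotype, which the submitters call wild type, and the other retinas carried T2Isl1/+, an Isl1 knock-in at the Tbr2 (Eomes) locus. Isl1, a LIM-homeodomain factor, acts in the development of retinal ganglion cells, and the T-box factor Tbr2 is made by some of these cells. Both alleles were heterozygous in C57BL/6 embryos, and each group had 3 libraries, each of a pool of 8 retinas. The labels do not say whether pools shared litters. No label names a Cre driver or the cells in which either allele was active.

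In the extracellular space, IGF binding proteins hold IGF ligands, which lengthens the life of the ligand and controls how much of it reaches the IGF receptor. Igfbp2 and Igfbp5 are both secreted and also bind cell surfaces or extracellular matrix. Irs1 acts inside the cell: the activated receptor phosphorylates it, and it then recruits phosphoinositide 3-kinase (PI3K) and so passes the signal to AKT and mTOR. Insulin and IGF signals are known for their support of growth and survival in retinal neurons and progenitors.

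Igfbp2 and Igfbp5 are neighbours that point towards each other. In mm10 coordinates, Igfbp2 covers chromosome 1 from 72824480 to 72852471 on the plus strand and Igfbp5 covers 72858065 to 72874865 on the minus strand. Their 3′ ends are 5593 bases apart, and their starts are 50.4 kb apart, so the pair does not share a start region. Irs1 lies at 82233104 to 82291642 on the minus strand, 9.36 Mb beyond Igfbp5. The stretches below precede each gene's start and show that the neighbours differ in their upstream sequence. They come from RefSeq (GRCm38.p6), where all 3 symbols matched. Capitals mark the GC box core GGGCGG in Igfbp2 and Irs1, and TATTTAA, a variant of the TATA box, in Igfbp5.
Igfbp2, chr1:72824360-72824459, plus strand: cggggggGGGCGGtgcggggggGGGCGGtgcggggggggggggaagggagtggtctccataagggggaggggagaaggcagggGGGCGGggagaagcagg
Igfbp5, chr1:72874886-72874985, minus strand: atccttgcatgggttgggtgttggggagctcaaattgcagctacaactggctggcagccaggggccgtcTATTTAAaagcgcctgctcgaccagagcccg
Irs1, chr1:82291643-82291689, minus strand: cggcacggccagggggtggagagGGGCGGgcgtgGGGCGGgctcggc

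For Igfbp2 and Igfbp5 the stretch runs from position -120 to -21 before the RefSeq start. For Irs1 it runs from -250 to -204, because the deposited Irs1 locus begins upstream of the RefSeq start. Over the 300-base window from 250 bases before to 50 after the start, GGGCGG was found 3 times for the first Igfbp2 start and 2 times for Irs1, on either strand. It was not found for Igfbp5, nor at a second RefSeq start of Igfbp2 at 72825387. Of 32851 RefSeq windows of this length, 35.7% hold GGGCGG and 4.51% hold TATTTAA, on either strand. TATTTAA was picked as a search word after the Igfbp5 sequence had been seen. CTAATG, a core word bound by LIM-homeodomain factors such as Isl1, was in none of the 4 windows and is in 7.36% of all windows. TATAAA was likewise in none of the 4, against 13.6% of all windows. CACGTG, the E-box word, was in the first Igfbp2 window at -142 and in the Irs1 window at -115, and is in 7.15% of all windows. GC content over the 250 upstream bases was 67.2% for Igfbp2, 58.8% for Igfbp5 and 72.4% for Irs1, against a median of 52.4% over all windows. These word matches describe the sequence only.

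All 3 genes were expressed in both genotypes at nearly the same level. Levels are given in FPKM (a fragment count divided by transcript length and by sequencing depth), with 1 combined value per genotype, so no spread over libraries can be given for any value below. Igfbp2 was the most abundant, Igfbp5 stood below it and Irs1 lowest, in both groups. None was called changed at a q-value (adjusted p) under 0.05, where 1.55% of the tested rows were called (10 of 646; 0.155% higher and 1.39% lower). None had an unadjusted p under 0.05 in the authors' test either, where 3.72% of tested rows had one, and none passed when p was adjusted by Benjamini-Hochberg over only the rows analysed, where 1.7% did.

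For the binding protein Igfbp2, the authors' deposited table gave 150.4 FPKM in control retinas and 154.0 FPKM in retinas with the knock-in. On the log2 scale, knock-in over control was 0.034 in the authors' deposited table (p = 0.760, q = 0.9997). The knock-in value was 2.42% above control. The same q-value was given to 97.4% of tested rows, Igfbp5 and Irs1 included. GENCODE M21 annotates 2 protein-coding Igfbp2 transcripts, and the value is for the gene as a whole. Igfbp2 ranked 16 of 646 tested rows in each genotype, so it belongs to the abundant transcripts among these rows. It held 0.725% of the summed FPKM of all complete rows in control and 0.740% in knock-in retinas. Of the tested rows, 78.8% differed more between genotypes than Igfbp2 did.

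For the neighbouring binding protein Igfbp5, the authors' deposited table gave 40.1 FPKM for control retinas and 36.3 FPKM for the knock-in. This was the largest difference of the 3 genes, with a log2 difference of -0.14 per the authors' deposited table (p = 0.211, q = 0.9997), and did not pass the test. The knock-in value stood at -9.31% relative to control, and 28.5% of tested rows differed more. Its rank was 106 in control and 111 in knock-in retinas.

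For the adaptor Irs1, the authors' deposited table gave 10.9 FPKM for control retinas and 10.6 FPKM for the knock-in, or -0.041 as log2 fold change (p = 0.712, q = 0.9997). Irs1 ranked 319 of 646 in both genotypes, near the median of tested rows, which was 10.7 FPKM for control retinas and 10.4 FPKM for the knock-in. Of the tested rows, 74.9% differed more than Irs1. The annotated gene Gm9747 overlaps the last Irs1 exon on the opposite strand, and whether counting used strand was not given in the sources used here. If it did not, reads of the 2 genes cannot be told apart there.

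**Figure D1:**
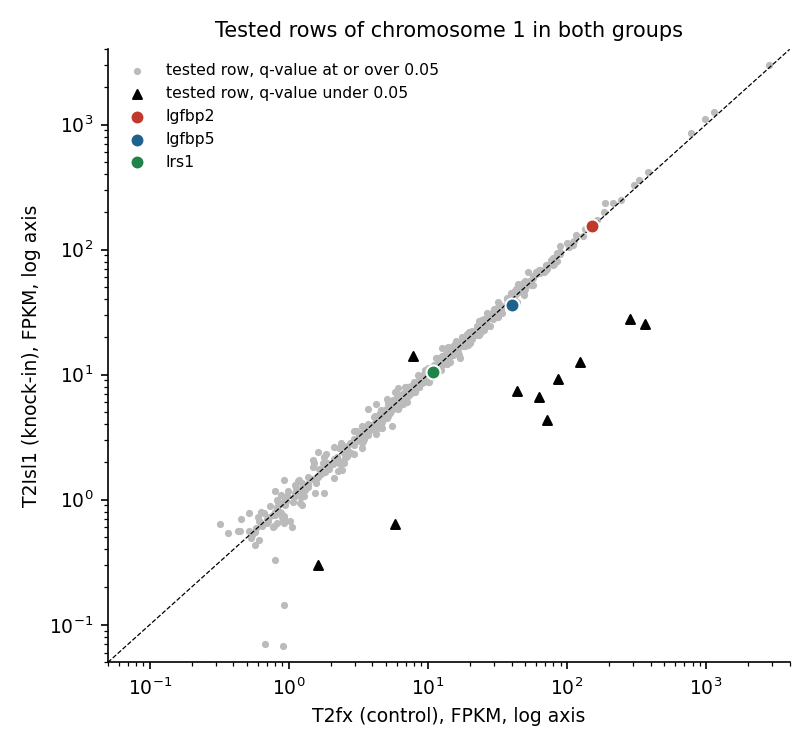
Control FPKM (x axis, log) against knock-in FPKM (y axis, log) for tested rows with values above 0 in both groups, each point being 1 row and the dashed line marking equal values. Igfbp2, Igfbp5 and Irs1 lie next to the line at about 150, 40 and 11 FPKM, while the 10 rows with a q-value under 0.05 (triangles) lie away from it.

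The values of the 2 binding protein genes differed from control in opposite directions by nearly the same amount of FPKM. Igfbp2 was 3.63 FPKM above control and Igfbp5 was 3.73 FPKM below, computed from the authors' deposited table. Their sum was accordingly 190.5 FPKM in control retinas and 190.4 FPKM with the knock-in. The ratio of Igfbp2 to Igfbp5 was 3.75 in control and 4.24 in knock-in retinas. With no value per library, neither the ratio nor the sum could be tested between genotypes. Relative to rows of like transcript length, described below, Igfbp2 was below as well (-0.052 on the log2 scale), so the opposite directions depend on that setting. Igfbp5 in turn exceeded Irs1 by 3.68-fold in control and 3.43-fold in knock-in retinas. The order Igfbp2, Igfbp5, Irs1 thus had steps of more than 3-fold in both groups, against a largest difference between genotypes of 1.10-fold.

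Rows of similar level show how large a difference had reached a low p in this comparison. Level here means the geometric mean of the 2 group values. Within 2-fold of the Igfbp5 level there were 170 other tested rows. Of these, 6 had an unadjusted p under 0.05, the smallest differing by 1.18-fold. Igfbp5 differed by 1.10-fold. Around Igfbp2, 3 of 35 rows had such a p, from 1.20-fold upwards, and around Irs1 it was 6 of 251 rows, from 1.19-fold upwards. Other rows with differences of up to 1.24-fold around Igfbp2, 1.17-fold around Igfbp5 and 1.30-fold around Irs1 had no such p. Calls at a q-value under 0.05 began at 10.2-fold around Igfbp2, 9.37-fold around Igfbp5 and 1.79-fold around Irs1. There were 2, 3 and 4 called rows, which were gamma crystallins around Igfbp2 and Igfbp5. Called rows also count among those with a low p, and large differences can place a row in the window by its mean alone. Cryga, around Igfbp2, stood at 364 FPKM for control and 25.3 FPKM for the knock-in. Crygd, around Igfbp5, stood at 123 and 12.7 FPKM. The sizes at which calls began thus do not show what could be detected at the levels of the 3 genes. The 3 genes differed by less than each of the sizes given here, and the lack of a call does not show that their levels were equal.

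The other insulin and IGF pathway genes with a row were also close to control. Of 83 listed pathway genes, 9 had a row and 8 were tested, 3 of them the genes above. Among the 8, 0 were called higher and 0 lower, and 0 had an unadjusted p under 0.05, in the authors' test. With 1.55% of all tested rows called and 3.72% at such a p, 0 of 8 is near the background and is no result about these genes. The knock-in value was above control for 3 and below for 5. Their median log2 fold change was -0.044, against 0.013 for all 646 tested rows, and they ranged from -0.14 to 0.057. Most of the 8 fell in transcript length groups 4 and 5, described below, and this comparison was not matched for length. IGF ligands, IGF and insulin receptors, binding protein proteases and IGF2 mRNA binding proteins were not among the rows and were not analysed here.

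Among adaptors, Gigyf2, a partner of the receptor adaptor GRB10, stood at 12.6 FPKM for control retinas and 12.2 FPKM for the knock-in, per the authors' deposited table. Its difference of -0.046 (log2) was close to the -0.041 of Irs1, per the authors' deposited table. The single tested gene of the PI3K, AKT and mTOR list was Pik3c2b, a PI3K catalytic gene, at 7.04 FPKM for control and 6.65 FPKM for the knock-in (log2 difference -0.082, per the authors' deposited table). The brakes on the pathway lay on either side of control, and none passed the test. Phlpp1, a phosphatase that inactivates AKT, stood at 23.3 and 24.2 FPKM (log2 difference 0.057), per the authors' deposited table. Pid1, a phosphotyrosine-binding protein that dampens insulin signalling, stood at 6.36 and 6.56 FPKM (log2 difference 0.046), per the authors' deposited table. Inpp4a, a phosphoinositide phosphatase, stood at 10.1 and 9.67 FPKM (log2 difference -0.063), per the authors' deposited table. Inpp5d, the related phosphatase of blood cells, was not tested by the authors and stood at 0.382 and 0.410 FPKM, per the authors' deposited table. By level, only Igfbp2 and Igfbp5 exceeded Phlpp1, and Irs1 stood between Gigyf2 and Inpp4a in both genotypes.

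**Figure D2:**
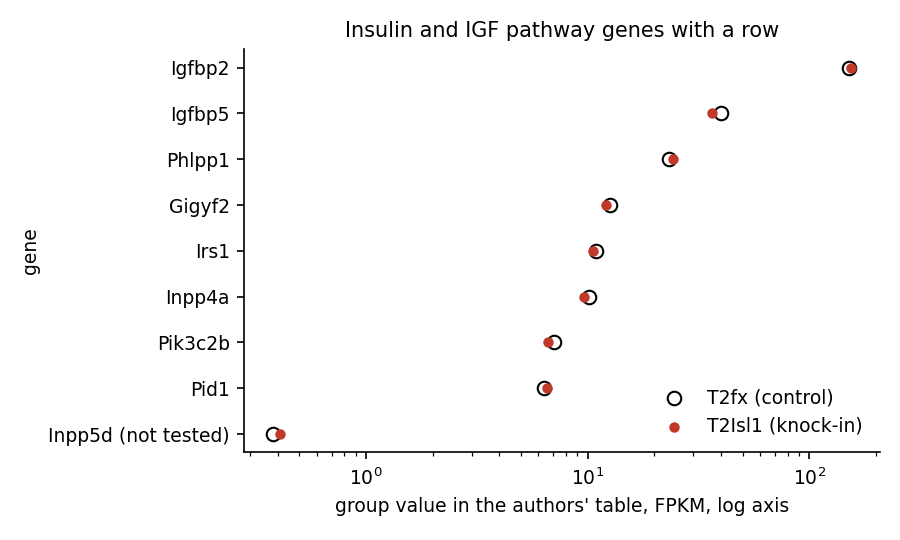
FPKM (x axis, log) of the 9 insulin and IGF pathway genes with a row (y axis, ordered by control level), with open circles for control and red points for knock-in retinas; there is 1 combined value per group and hence no error bar. The circles and points of each gene nearly coincide, and the 2 binding protein genes stand above the others.

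Within 500 kb of the binding protein pair, the 4 other tested genes were not called and none had an unadjusted p under 0.05, a count near the background of 1.55% and 3.72% of tested rows. On the Igfbp2 side, Rpl37a, a ribosomal protein gene 106 kb away, stood at 991 FPKM for control and 1108 FPKM for the knock-in (log2 difference 0.16), per the authors' deposited table. Smarcal1, an annealing helicase gene, stood at 10.01 and 9.93 FPKM, per the authors' deposited table. The largest difference among these 4 was that of March4, a membrane ubiquitin ligase gene, at 2.59 and 2.25 FPKM (log2 difference -0.20), per the authors' deposited table. On the Igfbp5 side the nearest row was Tnp1, the spermatid transition protein gene 140 kb away, which was listed at 0 in both groups in the authors' deposited table. The row nearest to the pair was thus listed at 0 on the Igfbp5 side and was far more abundant on the Igfbp2 side. Just beyond Rpl37a, Ankar, 124 kb from Igfbp2, was also listed at 0 in both groups. Next to Irs1, Rhbdd1, a rhomboid protease gene 24.7 kb away, stood at 4.41 and 3.74 FPKM (log2 difference -0.24, p = 0.165), per the authors' deposited table. Farther out on that side, Mff, a mitochondrial fission factor gene 433 kb from Irs1, stood at 73.7 and 75.2 FPKM, per the authors' deposited table. On the other side of Irs1 the nearest row was the microRNA gene Mir6344, listed at 0 in both groups in the authors' deposited table.

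**Figure D3:**
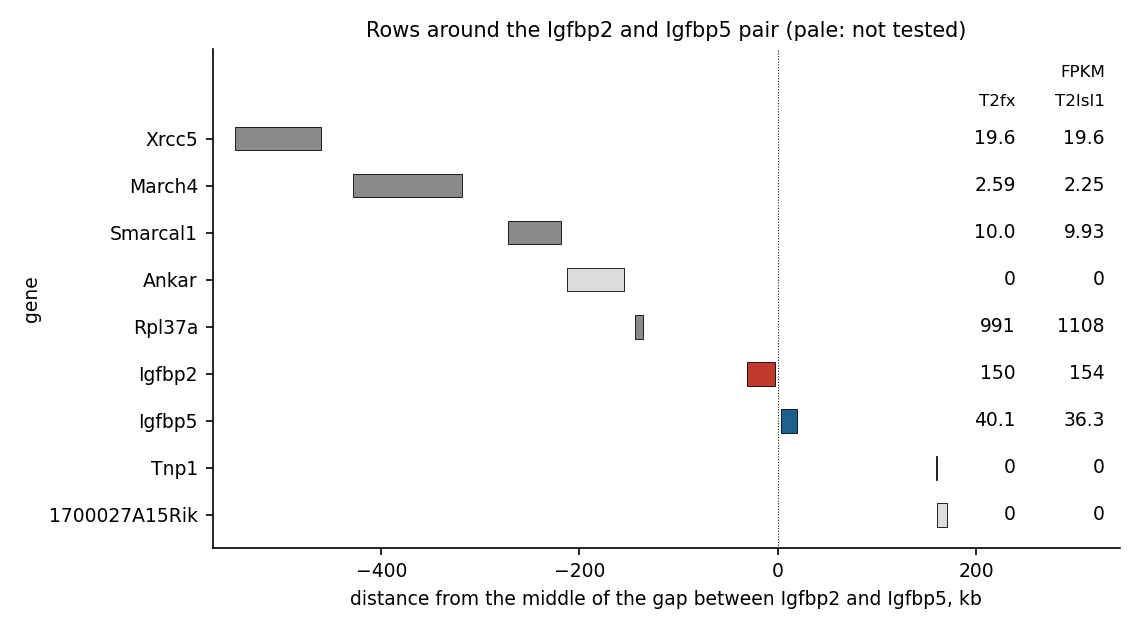
Rows within 500 kb of Igfbp2, drawn to scale as bars by distance in kb (x axis) from the middle of the gap between Igfbp2 and Igfbp5, with 1 gene per line (y axis), pale bars for rows the authors did not test, and FPKM of control and knock-in at the right. Igfbp2 and Igfbp5 sit side by side at the middle, with Rpl37a on the Igfbp2 side and Tnp1, at 0, on the Igfbp5 side.

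By likeness of the 2 group values, measured as the distance on the log2 scale over both genotypes, the rows near to Igfbp2 included Idh1 (0.10) and Hspd1 (0.10). Nearest to Igfbp5 were Hdlbp (0.062), Stx6 (0.11) and Dcaf8 (0.12). Nearest to Irs1 were Usp37 (0.020), Nmnat2 (0.029) and Pask (0.030). With only 2 values per gene, this likeness is one of level, and it describes no pattern beyond that.

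Transcript length moved with the sign of the difference across the tested rows, and the 3 genes differ widely in it. The longest annotated transcript has 1307 bases for Igfbp2, 6006 for Igfbp5 and 9144 for Irs1, in 4, 4 and 2 exons, of which 915, 813 and 3693 bases are coding. The 611 tested rows with an annotated length were split into 5 groups by length, numbered from the shortest. Igfbp2 fell in group 1, where the median log2 fold change was 0.087 and 28.7% of rows were below control. Igfbp5 fell in group 4, with a median of -0.0096 and 54.1% below control. Irs1 fell in group 5, with a median of -0.079 and 78.0% below control. Relative to its own length group, Igfbp2 was at -0.052, Igfbp5 at -0.13 and Irs1 at 0.038 on the log2 scale. The signs of Igfbp2 and Irs1 thus turned with this centring, which was chosen after seeing the data, while Igfbp5 remained below. The part of transcript length in these values was not tested.

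**Figure D4:**
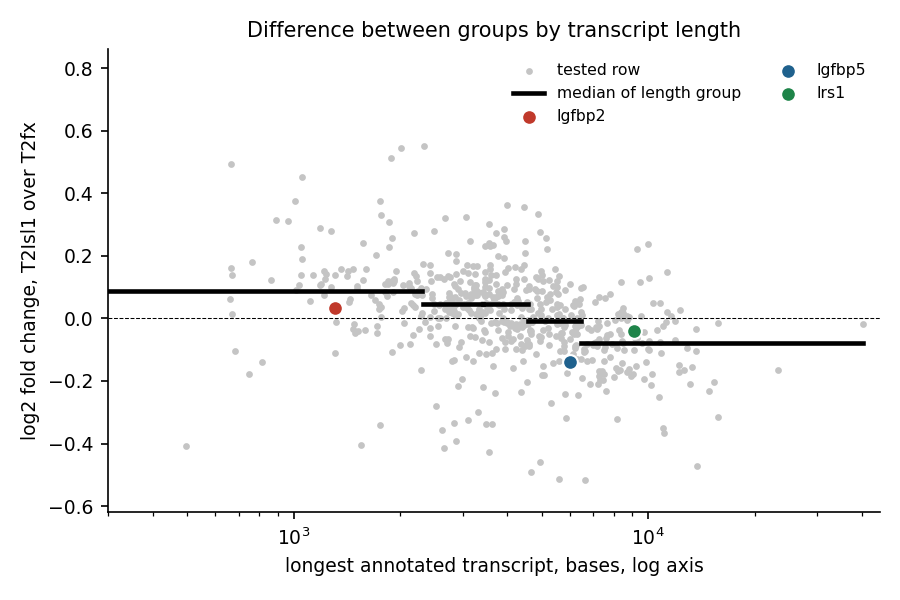
Log2 fold change of knock-in over control (y axis) against the longest annotated transcript in bases (x axis, log) for 590 tested rows (grey), with black lines at the median of each of 5 length groups (those of groups 2 and 3 nearly join); 21 rows beyond 0.6 on the log2 scale or under 300 bases are not drawn. Igfbp2 lies below the line of its group, Igfbp5 below and Irs1 above.

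Marker genes of other tissues were measured in the same comparison, in which 45.4% of all tested rows lay below control. Of all tested rows, 1.39% were called lower (9 of 646). The marker lists, chosen with earlier results of these data known, hold all 9 of these calls. The 8 lens marker rows summed to 1038 FPKM for control and 93.6 FPKM for the knock-in, with 7 of 7 tested rows called lower and Lgsn at 0 in both. The 5 connective tissue rows were all below control, with 1 of 4 tested rows called lower (Col3a1) and a sum of 24.4 and 15.3 FPKM. Of 10 skeletal muscle rows, 6 were not tested, 1 was called lower (Chrng) and Chrnd was at 0 in both. The other 9 lay below control, and the muscle rows summed to 18.3 and 14.7 FPKM, most of it from Mstn at 14.0 and 13.3 FPKM, per the authors' deposited table. The 6 retina marker rows summed to 491 and 519 FPKM, with 4 of 6 below control, and the 2 vessel and pericyte rows to 14.2 and 14.0 FPKM, with 1 above and 1 below; neither list held a call. The part of such tissue in the Igfbp5 value was not tested. In whole retinas, fewer cells of a type and less RNA per cell cannot be told apart. Isl1 and Eomes were not analysed here, so the knock-in itself was not checked.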

How the data were processed

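CASAVA, TopHat2 2.1.1 and Cufflinks 2.1.1 are named, unordered, with build mm10, per the submitters' processing notes. Which gene annotation was used was not given in the sources used here. Replicate libraries are combined: the deposited table has 1 value per gene and group, read as FPKM from the tool named, since the header says only value. The deposited log2 fold change, so named in the header, matched the log2 ratio of knock-in over control with no pseudocount to within 1.06e-05. The deposited p-values and q-values are the authors', and the deposited test score was not used. At 0.05, 10 tested rows passed the authors' q-value and 11 an adjustment over these rows alone. The authors thus appear to have adjusted over more rows. Library depth is unknown, p-values rest on the spread between pools as the authors modelled it, and single genes were not tested anew.

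Computed here with Python 3.11.15 and pandas 2.3.3 were ranks, differences, list counts, distances between rows and length groups, with transcript lengths from GENCODE M21 (GRCm38) for 94.6% of tested rows. Positions count from 1. The adjustment and grouping steps were tested on simulated data. Named genes are the 3 genes, pathway list genes with a row, tested rows within 500 kb with p under 0.05 (there were none) and adjacent rows, and the 3 nearest rows to each, of which 1 is not reported here. Mff, March4, Smarcal1 and Ankar were named after their values were seen. The genes and lists were chosen with earlier results of these data known. Alternatives were pseudocounts of 1 and 0.1, centring, other adjustments and thresholds and a floor of 1 FPKM.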

Additional observations from a re-analysis of the deposited data

How the results depend on the processing

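Relative to the median of rows of like transcript length, a setting added after seeing the data, Igfbp2 went from 0.034 to -0.052 and Irs1 from -0.041 to 0.038 on the log2 scale, the only reversals among the settings run; the cause was not tested. Pseudocounts of 1 and 0.1, centring on the median of all tested rows and Benjamini-Hochberg adjustment over the analysed rows kept the direction of all 3 genes, and none passed the threshold. Neither a pseudocount nor another adjustment of p can turn a sign, so those directions were fixed. Centring subtracted 0.013 from each log2 value, less than the 0.034 of Igfbp2, so it could turn none of the 3 signs. The counts of called genes, 0 of 3 and 0 of 8 pathway genes, remained 0 with adjustment over the analysed rows, at an unadjusted p under 0.05, at a q-value under 0.01 and with a floor of 1 FPKM. The last 2 could only lower a count and say nothing about stability. Leaving out a library was not run, because the table holds no value per library. No paired analysis was possible because the columns hold combined group values and carry no replicate number.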
